A study of Mus musculus with 12 samples.

Results

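The microtubule motors of the injured spinal cord were followed through 48 genes, 27 of the kinesin family, 16 of the dynein family and 5 of the dynactin family, out of 13957 genes with a value at either site. They were taken by symbol alone, as every gene whose name begins with KIF or KLC and a digit, or with DYNC, DYNL or DCTN. All 48 had a value above the lesion and 42 had one below it. KIF1BP entered through its name, although it encodes a protein that binds kinesins and is not a motor subunit. RefSeq lists 21 further symbols of this form, among them DCTN1, KIF11, KIF17 and KIF21A, and these were not analysed here.

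Kinesins walk mostly towards the plus ends of microtubules and carry vesicles, mitochondria and neurofilaments down the axon, while cytoplasmic dynein, held to its cargo by dynactin, walks back towards the cell body. A few kinesins work in the mitotic spindle and others in cilia, where a separate form of dynein serves intraflagellar transport. Long spinal axons depend on both directions of transport, and mutations of KIF5A, KIF1A and DYNC1H1 are known causes of hereditary disease of the spinal tracts or of motor neurons.

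The RNA came from male mice that carried human ApoE4, were operated on at 4 months of age and received a motor-incomplete contusion at thoracic level 9. At day 14 about 2 mm of cord was taken on the rostral side of the lesion, called above, and on the caudal side, called below. At each site 3 libraries were from mice with both synj1 alleles (synj1+/+) and 3 from mice labelled as having 1 inactive allele (synj1+/-), which makes 12 libraries in 4 groups. The labels name no driver or cell type for the inactive allele or for ApoE4, sham and ApoE3 mice were not analysed here, and whole tissue was sequenced, so fewer cells of a type and less RNA per cell cannot be told apart.

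The table gives 1 pooled value for each genotype and site, with 0 columns of single libraries. No spread between libraries, no error and no test could therefore be given, and every difference below is a description of these pooled values without a replicate check. Reads had been reduced to 1 number per site before alignment, so depth per library could not be read from the table. Levels are given as FPKM (fragments scaled to transcript length and to library size). Differences are given as the log2 ratio of the deposited values, the group labelled synj1+/- over synj1+/+, and a gene was counted as past the fold at 1.2-fold, a log2 ratio of 0.263. SYNJ1 itself, which encodes the phosphoinositide phosphatase synaptojanin 1, went against the labels: above the lesion the synj1+/+ value was 56.0 FPKM and the synj1+/- value 70.7 FPKM, and below it they were 54.3 and 76.2. Every direction given here follows the labels and carries that limit. Of the defining markers, SNAP25, GFAP, MOBP and C1QA were present in all 4 groups, so neurons, astrocytes, oligodendrocytes and microglia or macrophages were all in the tissue.

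The motor genes were well expressed. Over the 44 members whose values allowed an FPKM, the median above the lesion was 25.5 in synj1+/+ and 25.1 in the group labelled synj1+/-, against 10.6 and 10.5 over 12408 genes treated alike. Below the lesion the medians of 40 members were 21.6 and 24.0. Dynein genes stood highest, with a median of 47.4 above in synj1+/+, and kinesin genes lowest, with 11.2. Above the lesion 7 members, 15.9% of the 44, had a mean FPKM of 100 or more, compared with 3.75% of all genes. The range ran from DYNC2H1, with a mean of 0.865 FPKM above, to DYNLL2, with 560 above and 590 below. Levels at the 2 sites were close to each other. In synj1+/+ the median log2 ratio of below over above was 0.0074 over 42 members, and 7 of them differed by 1.2-fold or more. Over 12025 genes it was -0.0008, with 1645 past the fold towards higher below and 1379 towards lower. In the group labelled synj1+/- the median was 0.054, with 30 of 42 higher below and 5 past the fold. Over the 12025 genes it was 0.022 there, with 6677 higher below. Of these genes 1192 were past the fold towards higher below and 833 towards lower. The sites were normalized separately, so these ratios are set side by side only.

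**Figure D1:**
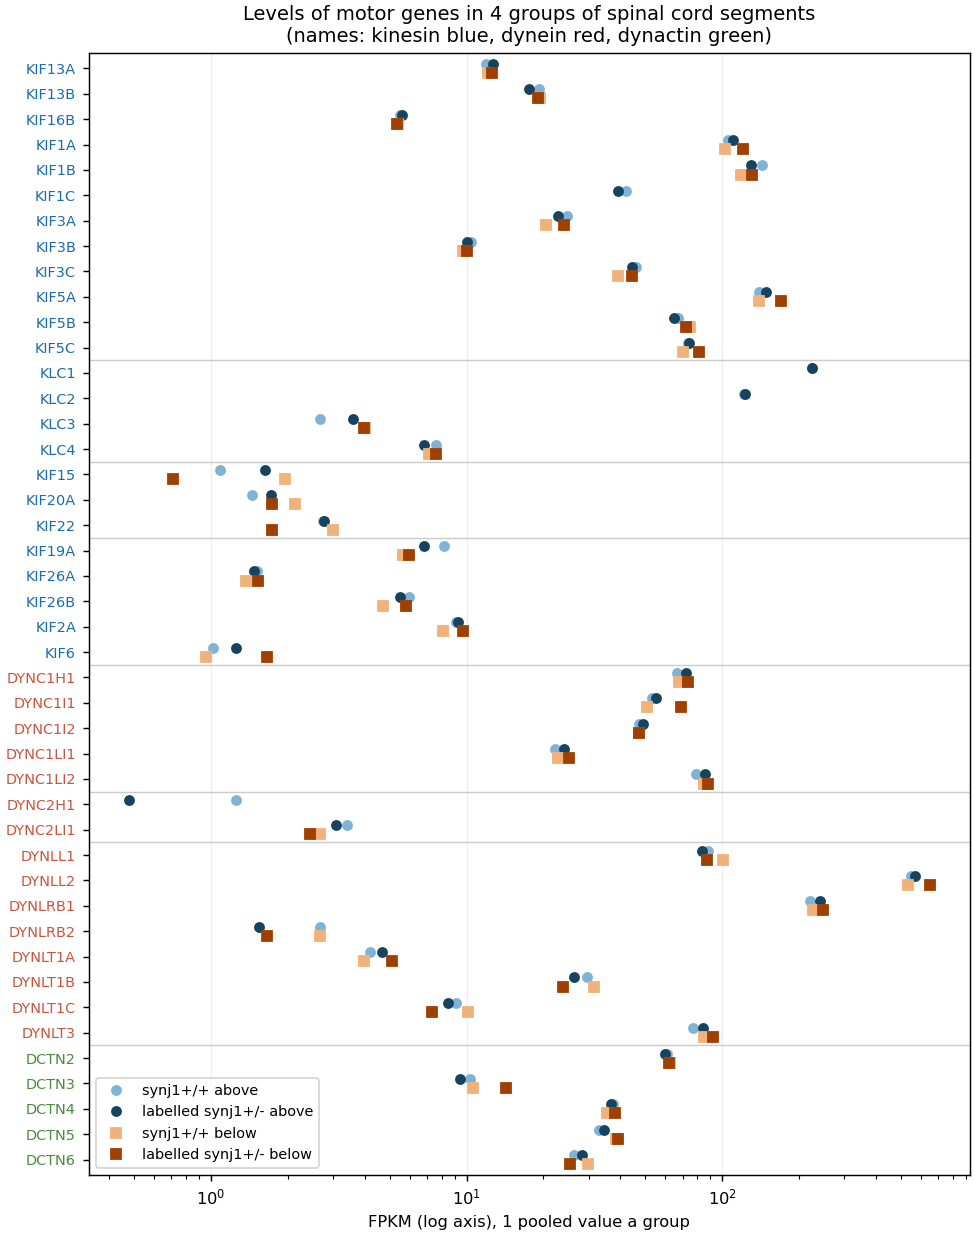
FPKM on a log axis for the 44 motor genes whose values allowed it, with 1 pooled point for each of the 4 groups, circles above and squares below the lesion, light for synj1+/+ and dark for the group labelled synj1+/-. Lines divide the roles. The points of a gene lie close together over a range of levels from 0.477 FPKM for DYNC2H1 to 647 FPKM for DYNLL2, and the widest gaps are in genes of low level such as KIF15, KIF6 and DYNC2H1.

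Above the lesion few members differed. KLC3 and KIF15 were past the fold in the higher direction, 2 of 48 beside a background of 6.63% of all 13645 genes, and DYNC2H1 and DYNLRB2 were past it in the lower direction, 2 of 48 beside 10.5%. Among the 29 members with a mean FPKM of 10 or more, which count KIF1BP and KIF21B although their FPKM is uncertain, 0 were past the fold in either direction, beside 3.04% higher and 5.66% lower of all genes at that level. The median log2 ratio was 0.013 over the members and -0.0039 over all genes. The members nearest to the fold on the outer side were KIF6 at 0.26 and KIF19A at -0.25.

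Below the lesion more genes differed, motor genes and others alike. There 7 of 42 members were past the fold in the higher direction, KIF6, DYNC1I1, DCTN3, DYNLT1A, DYNLL2, KIF5A and KIF26B, beside a background of 12.6% of 12337 genes. In the lower direction 5 of 42 were past it, KIF15, KIF22, DYNLRB2, DYNLT1C and DYNLT1B, beside 14.9%. Among the 24 members with a mean FPKM of 10 or more, 4 were higher (DYNC1I1, DCTN3, DYNLL2 and KIF5A) and 1 was lower (DYNLT1B), beside 10.4% and 9.45% of all genes at that level. The median was 0.061 over the 42 members, 0.12 over those 24, and 0.014 over all genes. The member just past the fold was KIF26B at 0.28, and the nearest ones short of it were KIF2A at 0.25 and KIF20A at -0.26. Upper quartile scaling turned the split of 7 higher and 5 lower into 4 higher and 7 lower. KIF5A, DYNLL2 and KIF26B then fell short of the fold, while KIF20A and DYNLT1F, at -0.26 and -0.24 before scaling, passed it in the lower direction. The share of all genes under that scaling was not computed. Without the scaling, the share in the higher direction was 16.7% of the members, near that of genes in general.

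**Figure D2:**
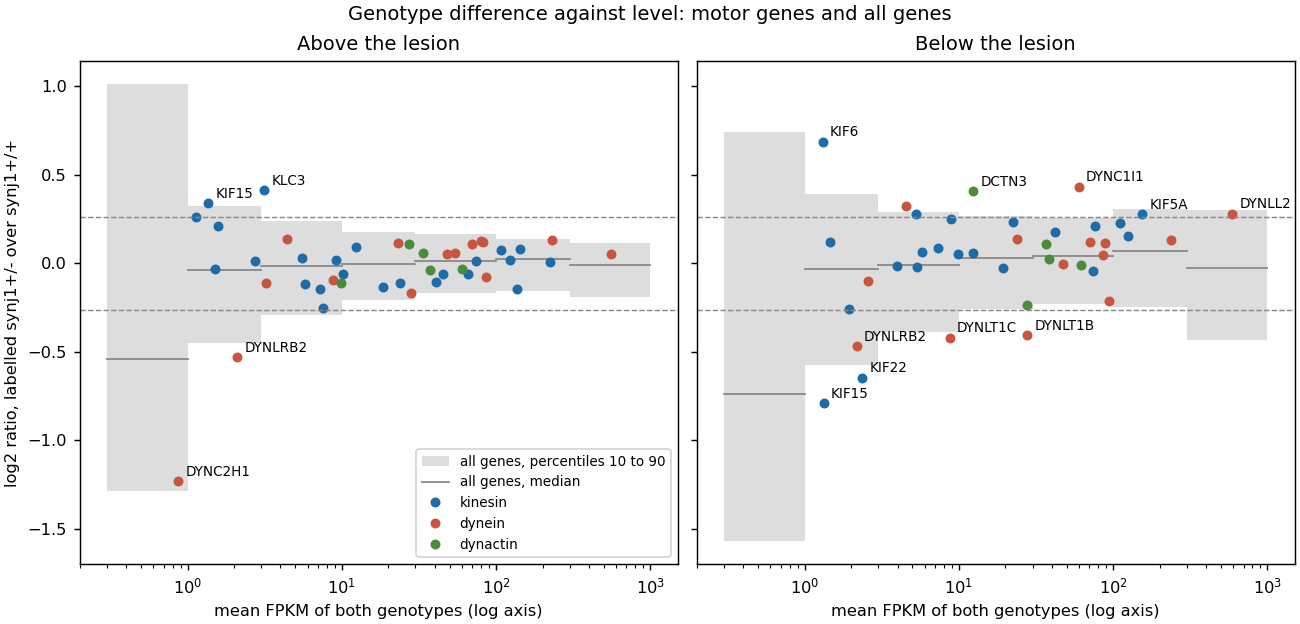
Log2 ratio of the group labelled synj1+/- over synj1+/+ (vertical) against mean FPKM of both genotypes on a log axis, above the lesion (left) and below it (right). Points are motor genes by family, grey boxes span percentiles 10 to 90 of all genes in each range of level with their median as a line, and dashed lines mark 1.2-fold. Above the lesion the motor genes over 10 FPKM lie between the dashed lines. Below it KIF6, DYNLT1A, DYNC1I1 and DCTN3 lie over the grey boxes and KIF15, KIF22, DYNLT1B and DYNLT1C lie under them, while KIF5A and DYNLL2 lie inside.

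Among the kinesins that carry cargo in neurons, levels were nearly level above the lesion and mostly higher in the group labelled synj1+/- below it. The median log2 ratio of these transport kinesins was -0.059 above, with 5 of 13 over 0, and 0.16 below, with 8 of 11 over 0. Over all genes the medians were -0.0039 and 0.014, with 49.0% and 52.8% over 0. KIF1C and KIF21B, both under 0 above, had no value below, so the sets of the 2 sites differ. Only KIF5A was past the fold, and only below, where upper quartile scaling took it to 0.26 and under the fold. KIF5A, the neuron-enriched heavy chain of kinesin-1, had an FPKM of 139.9 and 147.9 above the lesion and of 139.5 and 169 below it, synj1+/+ first. The log2 ratio was 0.079 above and 0.28 below. Of genes between 100 and 300 FPKM below the lesion, 10% had a log2 ratio over 0.30, so KIF5A lay within the range of most genes at its level. KIF5C, the other neuronal heavy chain, had 73.2 and 74.0 FPKM above, and 70.4 and 81.5 below, with log2 ratios of 0.015 and 0.21. KIF5B, the heavy chain found in nearly all cells, had 67.5 and 64.6 above, and 74.7 and 72.5 below. Its log2 ratios were -0.061 and -0.042, so it was slightly lower at both sites. The 3 heavy chains together came to 281 and 286 FPKM above the lesion and to 285 and 323 below it, and the share of KIF5A below was 49.0% in synj1+/+ and 52.4% in the group labelled synj1+/-.

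KIF1A and KIF1B, kinesin-3 motors that move synaptic vesicle precursors and mitochondria, were of the same order as KIF5A in level. KIF1A had 105 and 111 FPKM above and 103 and 120 below, and its log2 ratio was 0.072 above and 0.23 below. KIF1B had 144 and 129.8 FPKM above and 118 and 131 below, so its log2 ratio turned from -0.15 to 0.16. KIF1C had a value only above, 42.1 and 39.2 FPKM. The kinesin-2 motor KIF3A, which works with KIF3B or KIF3C in axons and cilia, had 24.7 and 22.9 FPKM above and 20.5 and 24.2 below. KIF3C, its neuronal partner, had 46.1 and 44.3 above and 39.0 and 44.3 below, and KIF3B had 10.5 and 10.0 above and 9.71 and 10.1 below. Each of the 3 was lower above and higher below in the group labelled synj1+/-, and their sum was 81.3 and 77.1 FPKM above and 69.2 and 78.5 below. The remaining transport kinesins, KIF13A, KIF13B, KIF16B and KIF21B, had log2 ratios from -0.14 to 0.090 over both sites. The deposited values of KIF21B, listed above only, could not be turned into FPKM.

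The kinesin light chains tie kinesin-1 to its cargo. KLC1 had 224 and 225 FPKM above the lesion, and KLC2 had 122 and 123, so the 2 abundant chains differed between genotypes by log2 ratios of 0.0080 and 0.017. Neither had a value below. KLC4 had 7.58 and 6.84 FPKM above and 7.11 and 7.57 below. KLC3, a light chain known mainly from sperm, was past the fold above, with 2.67 and 3.60 FPKM and a log2 ratio of 0.41, and had 4.02 and 3.97 FPKM below. Its gene span overlaps that of ERCC2 by 1255 bases and the span of KLC1 overlaps XRCC3 by 4653, and the library kit did not mark strand, so reads in the shared stretches could not be told apart.

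**Figure D3:**
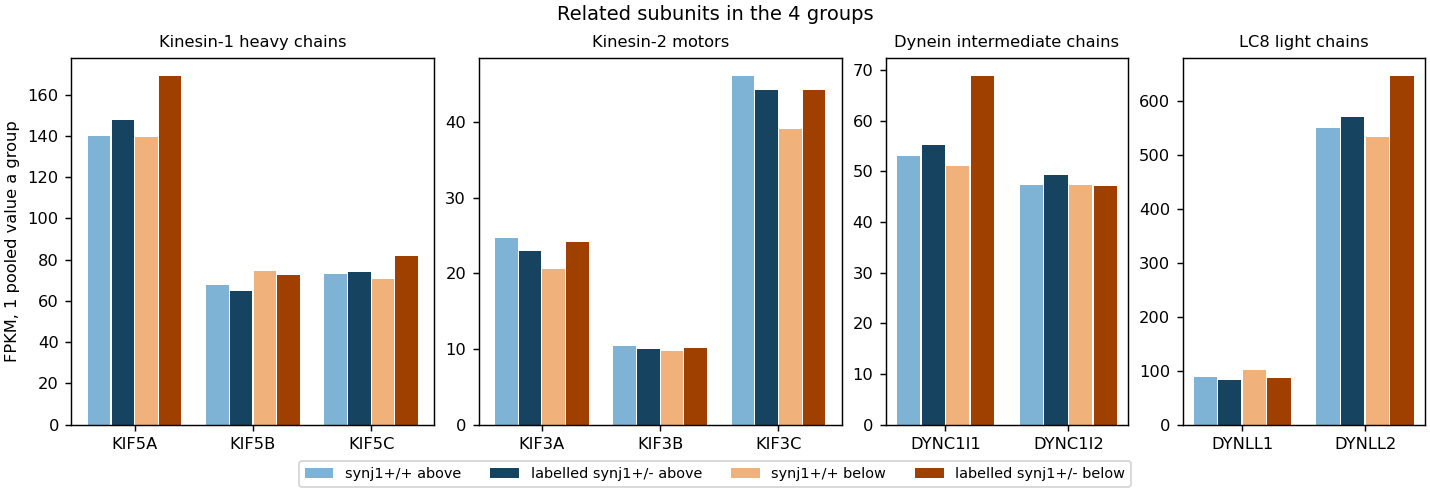
FPKM (bars from 0, 1 pooled value a group, scale differs between panels) of related subunits in the 4 groups. Below the lesion KIF5A, KIF5C, KIF3A, KIF3C, DYNC1I1 and DYNLL2 are higher in the group labelled synj1+/-, while KIF5B, DYNC1I2 and DYNLL1 are nearly equal or lower.

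The kinesins of dividing cells stood the other way. KIF15 and KIF22 act in spindle assembly and chromosome movement, and KIF20A acts in cytokinesis. All were of low level, between 0.708 and 2.998 FPKM. KIF15 had 1.08 and 1.63 FPKM above the lesion and 1.95 and 0.708 below, so its log2 ratio was 0.34 above and -0.79 below. KIF22 had 2.74 and 2.77 above and 2.998 and 1.73 below, with log2 ratios of 0.010 and -0.65. KIF20A had 1.45 and 1.73 above and 2.14 and 1.73 below, with 0.21 and -0.26. Relative to synj1+/+, 3 of 3 were higher above the lesion, although KIF22 was nearly level there, and 3 of 3 were lower below it. The list of mitotic kinesins held 11 genes, of which these 3 had a value at each site. Of all genes 49.0% had a log2 ratio over 0 above and 52.8% below. At 1 to 3 FPKM below the lesion the middle 80% of all genes ran from -0.57 to 0.39, and KIF15 and KIF22 lay under that range. KIFC1, a mitotic kinesin whose name is outside the rule, had 1.56 and 1.55 FPKM above and 2.02 and 1.40 below. The markers of dividing cells that had a value were of low level too. A missing value does not by itself show a low level, as KLC1 had 224 FPKM above in synj1+/+ and no value below. Above, 2 of the 10 had a value, TOP2A and BIRC5, both lower in the group labelled synj1+/-. Below, 4 had a value and 3 of them were past the fold in the lower direction, beside 14.9% of all genes. CDK1, with 1.58 and 0.687 FPKM, had a log2 ratio of -0.61 and lay under the same range of genes at 1 to 3 FPKM. PLK1 at -0.39 lay inside it, BIRC5 at -0.38 did not allow an FPKM, and MKI67 had no value at either site. The part of these markers in the values of the mitotic kinesins was not tested.

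The stretches before the start sites of KIF15 and KIF22 are shown because these 2 genes were both past the fold in the lower direction below the lesion and mitotic genes often carry a CCAAT box and a cell cycle homology region (letters TTTGAA) there. Sequences are the 250 bases before the RefSeq start on GRCm38.p6, read in the direction of the gene, with matches to CCAAT or TTTGAA on either strand in capitals. KIF15 lies on the plus strand at chr9:122950831-122951080 and KIF22 on the minus strand at chr7:127042421-127042670.
KIF15: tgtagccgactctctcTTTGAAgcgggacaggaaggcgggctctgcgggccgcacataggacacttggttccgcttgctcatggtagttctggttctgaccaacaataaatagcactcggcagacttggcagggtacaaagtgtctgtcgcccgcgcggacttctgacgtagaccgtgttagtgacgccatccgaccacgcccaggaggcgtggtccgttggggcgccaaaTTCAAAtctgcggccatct
KIF22: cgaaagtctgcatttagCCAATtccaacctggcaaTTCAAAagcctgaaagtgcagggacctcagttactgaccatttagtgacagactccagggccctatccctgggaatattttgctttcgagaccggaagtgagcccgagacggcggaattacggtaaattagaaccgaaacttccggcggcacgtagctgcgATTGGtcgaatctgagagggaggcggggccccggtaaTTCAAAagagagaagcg

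KIF15 held 2 matches to TTTGAA and 0 to CCAAT, and KIF22 held 2 of each. TTTGAA was in 16.0% and CCAAT in 33.8% of 32851 such stretches, and the motifs do not overlap each other in these sequences. Of 33 members with an entry, TTTGAA was found in 4 (KIF15, KIF22, KIF1A and KIF26B) and CCAAT in 14. KIF20A had no entry, so its start site was not examined. A match describes the letters only.

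The other kinesins were a mixed group of low level. KIF6, a kinesin of motile cilia, had 1.01 and 1.25 FPKM above and 0.956 and 1.66 below, and its log2 ratio was 0.26 above and 0.69 below. With FPKM divided by transcripts plus 1 these became 0.16 and 0.44. KIF26B, which takes part in Wnt signalling, had 5.98 and 5.48 FPKM above and 4.70 and 5.80 below, with log2 ratios of -0.11 and 0.28, the latter short of the fold under upper quartile scaling and with FPKM divided by transcripts plus 1. KIF2A, which takes tubulin off microtubule ends, had 9.12 and 9.23 above and 8.13 and 9.69 below. KIF19A, a depolymerase at the tips of motile cilia, had 8.19 and 6.80 above and 5.67 and 5.94 below. KIF26A and KIF7 had log2 ratios from -0.10 to 0.15, and the values of KIF7 could not be turned into FPKM. KIF1BP had deposited values of 154.5 and 154.9 above, a log2 ratio of 0.0041, and none below.

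Cytoplasmic dynein 1 is the retrograde motor, and its 5 chains differed little above the lesion. All 5 had log2 ratios over 0 there, from 0.054 to 0.12, and 4 of 5 did below, beside 49.0% and 52.8% of all genes. DYNC1H1, the heavy chain with the motor domain, had 66.8 and 72.2 FPKM above and 67.6 and 73.5 below, with log2 ratios of 0.11 and 0.12. DYNC1LI1 had 22.1 and 24.0 above and 22.7 and 25.1 below, and DYNC1LI2 had 78.8 and 85.6 above and 85.0 and 87.9 below. These light intermediate chains link the motor to its adaptors.

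The intermediate chains, which bind dynactin, parted from each other below the lesion. DYNC1I1, the chain enriched in neurons, had 52.9 and 55.2 FPKM above and 51.0 and 68.9 below. Its log2 ratio was 0.060 above and 0.43 below, past the fold there and over the 0.26 that bounds the highest 10% of genes between 30 and 100 FPKM. DYNC1I2, the chain of all cells, had 47.4 and 49.2 FPKM above and 47.3 and 47.2 below, with log2 ratios of 0.054 and -0.0025. DYNC1I1 thus made up 52.8% and 52.9% of the pair above the lesion, and 51.9% and 59.4% below. The value that stands apart of the 4 is the one below in the group labelled synj1+/-. The spans of 2 noncoding RNA genes lie partly within that of DYNC1I1, with overlaps of 13410 and 13497 bases.

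The light chains held both the most abundant motor genes and the least certain ones. DYNLL2, a light chain that also serves many other proteins as a dimerization hub, had 549.5 and 570 FPKM above and 533 and 647 below, with log2 ratios of 0.052 and 0.28, the latter short of the fold after upper quartile scaling. Genes between 300 and 1000 FPKM had a log2 ratio over 0.30 in their highest 10% below the lesion, so DYNLL2 lay inside that range. DYNLL1, its close relative, went the other way, with 88.2 and 83.4 above and 101 and 87.0 below, and log2 ratios of -0.080 and -0.22. Their coding sequences, of 270 bases each, were 81.1% identical and shared no stretch of 100 bases with the transcripts of any other gene. DYNLL1 made up 13.8% and 12.8% of the pair above the lesion and 16.0% and 11.9% below. DYNLRB1, a roadblock light chain, had 220 and 241 FPKM above and 227 and 249 below, with a log2 ratio of 0.13 at both sites. DYNLT3, a Tctex-type light chain, had 76.8 and 84.0 above and 85.2 and 92.4 below.

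DYNLT1, the other Tctex-type light chain, is present in mouse as 4 copies, DYNLT1A, DYNLT1B, DYNLT1C and DYNLT1F, on chromosome 17 between 6306344 and 6655965 (GRCm38.p6). Their first 60 coding bases are shown because they bear on how far reads can be assigned to one copy. Capitals mark the only position at which the 342 coding bases of the 4 copies differ.
DYNLT1A: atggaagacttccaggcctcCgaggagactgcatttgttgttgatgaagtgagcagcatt
DYNLT1B: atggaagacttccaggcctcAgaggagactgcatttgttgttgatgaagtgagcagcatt
DYNLT1C: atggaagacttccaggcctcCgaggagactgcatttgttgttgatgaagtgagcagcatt
DYNLT1F: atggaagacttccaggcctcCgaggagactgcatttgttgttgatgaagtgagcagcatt

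DYNLT1B thus differed from each other copy at 1 base, an identity of 99.7%, and the other three were identical over the coding bases. Of the 100-base stretches in their transcripts, 82.0% in DYNLT1B, 86.5% in DYNLT1C, 85.1% in DYNLT1F and 42.5% in DYNLT1A were also in another gene, while the other 44 members shared none. Values of single copies are therefore uncertain. DYNLT1B had 29.6 and 26.3 FPKM above and 31.6 and 23.8 below, with log2 ratios of -0.17 and -0.41. DYNLT1C had 9.13 and 8.48 above and 10.1 and 7.30 below, with -0.095 and -0.42. DYNLT1A had 4.20 and 4.68 above and 3.99 and 5.12 below, with 0.14 and 0.32, and its span overlaps TMEM181A by 1971 bases. The log2 ratio of DYNLT1F was 0.16 above and -0.24 below. The sum of DYNLT1A, DYNLT1B and DYNLT1C, which is less open to reads moving between copies, was 42.9 and 39.5 FPKM above and 45.7 and 36.2 below, a log2 ratio of -0.12 and -0.34. DYNLT1F is not in this sum because its values did not allow an FPKM. Reads shared with that copy can therefore still move into or out of the sum. Without the 4 copies, 3 members were past the fold in the lower direction below the lesion.

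The dynein genes of cilia among the members were of low level and were lower in the group labelled synj1+/- wherever they had a value. Subunits outside the rule mostly went the other way. DYNLRB2, the roadblock chain of ciliated cells, had 2.66 and 1.54 FPKM above and 2.68 and 1.66 below. It was past the fold in the lower direction at both sites, with log2 ratios of -0.53 and -0.47. At 1 to 3 FPKM the middle 80% of all genes ran from -0.45 to 0.32 above and from -0.57 to 0.39 below. DYNLRB2 thus lay under that range above and inside it below. DYNC2H1, the heavy chain of intraflagellar transport, had 1.25 and 0.477 FPKM above, a log2 ratio of -1.23, and no value below. With 10 transcripts its deposited values were 13.5 and 5.77, so the added 1 shrank its ratio less than in a gene with 1 transcript, such as DYNLRB2. Its mean FPKM was under 1, a level at which the middle 80% of genes ran from -1.29 to 1.01, and its span overlaps DCUN1D5 by 1717 bases. Its light intermediate chain DYNC2LI1 had 3.40 and 3.08 above and 2.68 and 2.44 below, short of the fold at both sites. Among the subunits of the same dynein with other names, WDR34 had log2 ratios of 0.16 above and 0.16 below, WDR60 had 0.20 and -0.068, and TCTEX1D2 had 0.36 and 0.083. Of 9 markers of ependymal and other ciliated cells, 2 had a value, FOXJ1 and CCDC39. FOXJ1 had 22.9 and 20.5 FPKM above and 20.4 and 22.5 below, and CCDC39 had 7.01 and 5.81 above and 6.09 and 6.24 below. Both were lower above and slightly higher below in the group labelled synj1+/-, and their part in the values of DYNLRB2, DYNC2H1 and KIF6 was not tested.

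Dynactin joins dynein to its cargo and lengthens its runs. Its 5 measured subunits had log2 ratios from -0.11 to 0.11 above the lesion and from -0.24 to 0.41 below. DCTN2, the subunit dynamitin, had 61.1 and 59.8 FPKM above and 62.5 and 62.1 below, so it was level at both sites. DCTN3, which sits beside it in the shoulder of the complex, had 10.3 and 9.46 above and 10.6 and 14.2 below. The first 3 of these 4 values are close to each other, and the log2 ratio was -0.11 above and 0.41 below. DCTN6, a subunit of the pointed end, had 26.3 and 28.4 above and 29.97 and 25.4 below, which gave 0.11 and -0.24 and so the opposite order. The other pointed-end subunits were level, DCTN5 with 33.0 and 34.4 above and 38.3 and 39.0 below, and DCTN4 with 37.5 and 36.6 above and 35.3 and 38.0 below. The gene spans of DCTN2 and KIF5A overlap by 87 bases at their starts, and that of DCTN6 overlaps MBOAT4 by 2001.

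**Figure D4:**
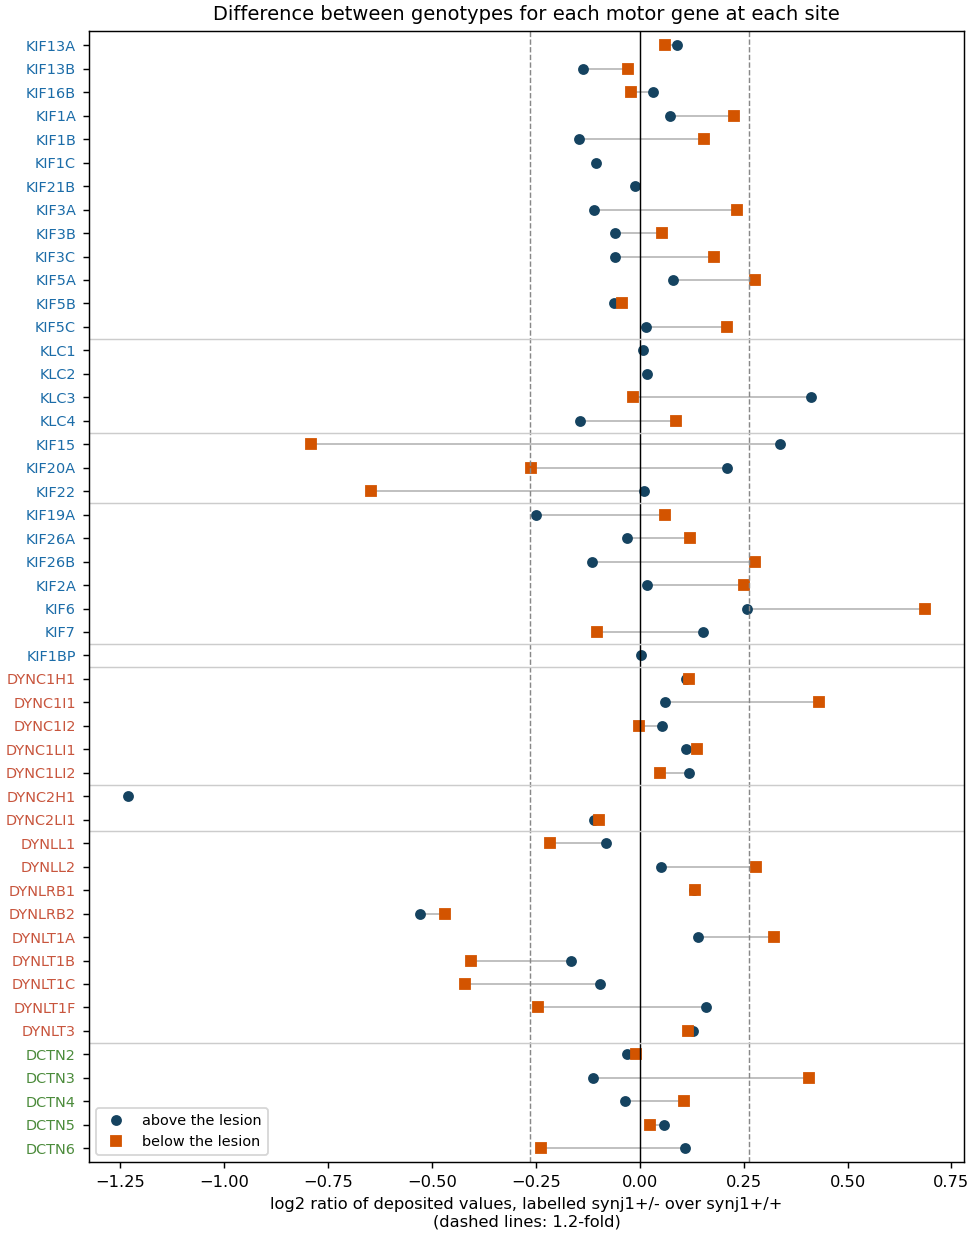
Log2 ratio of deposited values of the group labelled synj1+/- over synj1+/+ for each of the 48 motor genes, above (circles) and below the lesion (squares), in the order of their roles, with a grey line between the sites and dashed lines at 1.2-fold. Most lines of the transport kinesins run to the right, from above to below, and those of KIF15, KIF20A and KIF22 run to the left, the longest from 0.34 to -0.79.

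The genotype difference was then set side by side between sites, as the log2 ratio below minus that above for the 42 members with both. The median of this site difference was 0.024 over the members and 0.022 over 12025 genes. By family it was 0.15 over 22 kinesins, 0.0016 over 15 dynein genes and 0.021 over 5 dynactin genes, and it was over 0 in 68.2% of the kinesins compared with 53.9% of all genes. It was past 1.2-fold towards a higher ratio below in 7 of 42, beside 14.6% of all genes, and towards a lower ratio below in 7 of 42, beside 13.3%. The largest values towards higher were 0.52 for DCTN3, 0.43 for KIF6, 0.39 for KIF26B, 0.37 for DYNC1I1 and 0.34 for KIF3A. Towards lower they were -1.13 for KIF15, -0.66 for KIF22, -0.47 for KIF20A, -0.43 for KLC3 and -0.40 for DYNLT1F. With 1 value a group the difference between sites was not tested.

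Motor adaptors and regulators, the proteins that switch motors on or couple them to cargo, were described from a list of 42 genes. Above the lesion 36 had a value, 0 were past the fold in the higher direction and 3 in the lower direction, beside 6.63% and 10.5% of all genes, and the median log2 ratio was -0.012. The 3, a number near that background, were HOOK3 with 11.1 and 8.23 FPKM, BICD1 with 5.56 and 4.55, and BICD2 with 36.5 and 30.2, each known to link dynein to cargo. Below the lesion 26 had a value, 3 were higher and 1 lower, beside 12.6% and 14.9% of all genes, and the median was 0.12. HAP1, the huntingtin-associated protein that binds both motors, was the highest, with 58.7 and 79.2 FPKM and a log2 ratio of 0.43. CLSTN3, of the calsyntenins that bind kinesin light chains, had 94.7 and 120 FPKM, and MAPK8IP2, a kinesin-1 scaffold, had 57.5 and 71.1. HOOK3 was again the lower one, with 10.5 and 8.52 FPKM and log2 ratios of -0.42 above and -0.30 below. Of 14 motor subunits with other kinds of name, 13 had a value above and 1 was past the fold, TCTEX1D2, a light chain of the ciliary dynein, with 5.56 and 7.22 FPKM. Below, 10 had a value, KIFC2 was higher with 36.5 and 45.6 FPKM, and KIFC1 was lower. ACTR1B, ACTR10, CAPZA1, CAPZA2 and CAPZB, which build the filament and ends of dynactin, had log2 ratios from -0.11 to 0.11 over both sites.

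Cell type markers differed between the genotypes beside these genes. Of all genes 49.0% had a log2 ratio over 0 above and 52.8% below. Past the fold were 6.63% higher and 10.5% lower above, and 12.6% higher and 14.9% lower below. Neuron markers had a median log2 ratio of 0.084 above, with 9 of 13 over 0 and 0 past the fold, and of 0.19 below, with 10 of 11 over 0 and 4 past the fold. Their summed FPKM was 4666 and 4798 above, over 12 of them, and 4800 and 5568 below, over 11. Markers of microglia and macrophages were lower, with medians of -0.41 and -0.64, 6 of 11 past the fold above and 9 of 9 below, and sums over those that allowed an FPKM of 1529 and 1062 above and 2708 and 1500.1 below. Fibroblast markers had medians of -0.43 and -2.76, with 5 of 8 and 8 of 8 past the fold, and their sum was 39.1 and 30.2 above and 311 and 52.3 below. Astrocyte markers had medians of -0.26 and -0.18, with 3 and 2 of 7 past the fold, and sums of 4722 and 4050 above and 4313 and 3452 below. The oligodendrocyte medians were -0.12 and -0.015, with 0 of 4 past the fold at either site, and the endothelial medians were 0.14 and -0.14, with 2 of 6 higher above and 1 of 6 lower below. The median of the transport kinesins below the lesion, 0.16, and that of the adaptors, 0.12, lay between that of all genes and that of the neuron markers. Above the lesion these 2 medians, -0.059 and -0.012, lay under that of all genes, -0.0039, and that of the neuron markers. The 9 dynein light chains below the lesion, with a median of -0.22, also lay under all genes, but 4 of them are the DYNLT1 copies of uncertain value. Over the 5 light chains with a mean FPKM of 10 or more, the median below was 0.12. The part of these markers in the motor gene values was not tested.

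**Figure D5:**
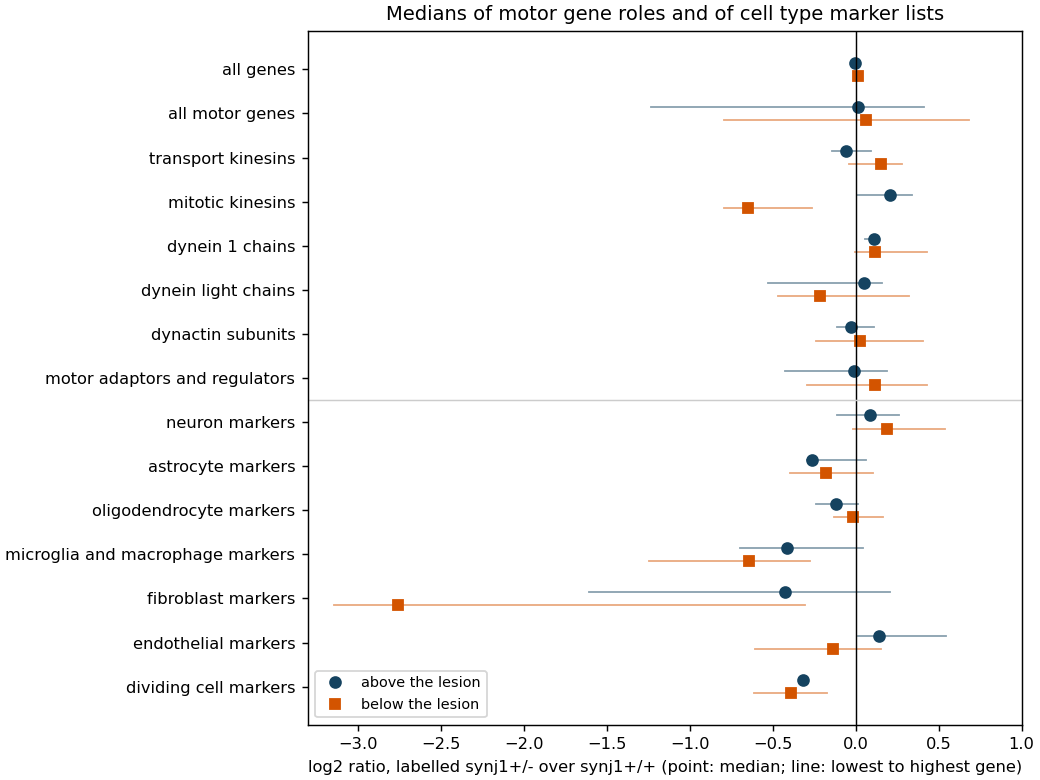
Median log2 ratio (points) of the group labelled synj1+/- over synj1+/+ for motor gene roles, adaptors and cell type markers, above (circles) and below the lesion (squares), with lines from the lowest to the highest gene of each list; the line of all genes is left out. Transport kinesins go from -0.059 above to 0.16 below and neuron markers from 0.084 to 0.19, while fibroblast markers go from -0.43 to -2.76.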

How the data were processed

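Total RNA of about 2 mm of cord was made into TruSeq v2 libraries, which do not mark strand, and sequenced as paired ends. The submitters' processing notes name STAR 2.5.4b, Cuffdiff 1.3.0 and GRCm38.p6. Before deposit the authors removed reads at random down to the smallest library of a site, applied upper quartile normalization and pooled the 3 libraries of a group. The authors' deposited FPKM values were found to be the number of RefSeq transcripts of the gene times FPKM, plus 1: 94.2% of 51542 values match this to the stored digits, within 0.6 units of the last digit below 5 transcripts and 1.1 from 5, against 47.5% for that number plus 1. FPKM was therefore taken as the value minus 1 divided by the number of transcripts. This differs from the assumption of FPKM plus 1 made when the design was written. It holds for 44 of the 48 members, and not for DYNLT1F, KIF1BP, KIF21B and KIF7. Log2 ratios use the deposited values, so the added 1 shrinks those of low genes, and less so where a gene has many transcripts. Further columns hold the authors' fold changes, p-values and q-values and were not used. The shorter list was not used, and 3 repeated rows were left out.

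Groups follow the genotype and segment that each label gives. Members, roles and lists were chosen with earlier results of these data known. Genes named are those past 1.2-fold at a mean FPKM of 1 or more, the most abundant of each family, the kinesin-1 chains, the members of largest site difference, the adaptors and other subunits past the fold, and SYNJ1. The other dynein 1 and dynactin chains, KIF2A, KIF3B, KIF19A, DYNC2H1, DYNC2LI1 and DYNLT3 were named after their values were seen. Role lists, the level ranges of 10% and 90%, and shared stretches of 100 bases describe only. Coding bases came from GENCODE M21 transcripts and start sites from RefSeq, both on GRCm38.p6. Alternatives were a pseudocount of 0.1 in place of 1, floors of 1 and 10 FPKM, centring, upper quartile scaling, a fold of 1.5, means, and, added after seeing the data, FPKM divided by transcripts plus 1 and leaving out KIF1BP or the DYNLT1 copies. Python 3.11.15, numpy 2.4.6 and pandas 2.3.3 were used, and the steps were tested on simulated data.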

Additional observations from a re-analysis of the deposited data

How the results depend on the processing

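With 1 pooled value a group and no column of single libraries, results without each replicate could not be computed and neither an error nor a test exists. No paired analysis was possible because the table holds no column of single samples. Centring on the median gene kept each count and median within 0.05 on the log2 scale or 1.5 times. With a floor of 1 FPKM, 1 member was lower above. With a floor of 10 FPKM, 0 were higher and 0 lower above, 4 higher and 1 lower below, and the medians below were 0.12 over the members, 0.18 over kinesins and 0.12 over dynein genes. Upper quartile scaling gave 4 higher and 7 lower below. At 1.5-fold 0 were higher and 1 lower above, and 1 higher and 2 lower below. Shares of all genes were computed only at 1.2-fold on the unscaled values, with no floor and with the floor of 10 FPKM. Counts under the other alternatives therefore describe the members alone and cannot be set against genes in general. The mean of the dynein genes was -0.071 above and -0.018 below, where the medians were 0.057 and 0.048. Without the DYNLT1 copies 3 were lower below and the dynein median was 0.12. No value past the fold changed sign under any alternative tried, but none could have done so. Centring and upper quartile scaling shift ratios by about 0.020 or less, and the other alternatives keep the order of the 2 genotypes for a gene. A pseudocount of 0.1 moved KIF15, KIF22, KIF6 and DYNLRB2, and the log2 ratio of KIF15 below became -1.35. With FPKM divided by transcripts plus 1, KIF6 was 0.16 above and 0.44 below, KLC3 0.32 above and KIF22 -0.55 below, and 6 members were higher below, KIF26B at 0.25 being no longer past the fold. Genes under 3 FPKM are the least certain.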
